A study of Homo sapiens with 18 samples.

Results

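EPX and 9 further genes of granulocyte granule proteins (MPO, LPO, PRG2, RNASE2, ELANE, PRTN3, AZU1, CTSG and LYZ) were followed in K562 cells with and without BASP1. The genes were chosen by symbol, because EPX is strongly higher in cells that express wild-type BASP1. All 10 are present among the 28395 genes of each RNA-seq table. Open chromatin was described in the 16 of 85549 ATAC-seq regions that overlap these genes or lie within 5 kb of them. K562 is a human cell line from a chronic myelogenous leukemia that keeps erythroid and megakaryocytic features and is not a granulocyte. BASP1 is a transcriptional corepressor that carries an N-terminal myristoyl group. V-K562 cells carried the vector alone. Wild-type BASP1 (wtBASP1) was expressed in the B-K562 line, and the G-K562 line expressed BASP1-G2A, a form that is not myristoylated. Each line is a stably transfected, drug-selected pool of cells, so 3 cultures of a line share 1 transfection, and the comparisons are between lines. Every line had 3 replicates for RNA-seq and 3 for ATAC-seq, without further treatment except that cells for ATAC-seq received DNase before harvest.

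The granule proteins are made while a granulocyte matures and are stored for later release. The peroxidases, EPX in eosinophils, MPO in neutrophils and LPO mainly in secretory epithelia, use hydrogen peroxide to make oxidants that kill microbes. PRG2 is the major basic protein of the eosinophil granule and RNASE2 is its ribonuclease. ELANE, PRTN3, AZU1 and CTSG belong to the serine protease family of the azurophil granule of the neutrophil, with AZU1 lacking protease activity, and LYZ cleaves bacterial cell walls. In blood cell development the early myeloid genes among them are controlled by factors of the C/EBP, ETS, RUNX and MYB families.

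The sequences of 3 regions with chromatin differences and of 2 promoters are given first. The 3 region windows are 300 bases around the ATAC-seq summit, on the forward strand of hg38, upstream of EPX (chr17:58189771-58190070), AZU1 (chr19:823627-823926) and PRG2 (chr11:57395915-57396214). They are shown because the EPX region was less open where EPX RNA was highest, the AZU1 region had no peak in B-K562 cells, and the PRG2 region had none in G-K562 cells. The 2 promoters, AZU1 (chr19:827587-827886) and PRTN3 (chr19:840749-841048), are 250 bases before to 50 bases after the start in RefSeq, GRCh38.p14, forward strand, and belong to a pair of neighbouring genes with like RNA patterns. RefSeq promoters matched 5 of the 10 genes (RNASE2, CTSG, LPO, AZU1 and PRTN3). Capitals mark matches on either strand to known motifs. For GATA factors the letters were AGATAA, or the same with a T in the first place, for C/EBP factors TTNNGNAA, for PU.1 and other members of the ETS family GAGGAAG, for RUNX factors TGTGGT, and for WT1 and EGR factors GCGTGGGNG.
EPX upstream region: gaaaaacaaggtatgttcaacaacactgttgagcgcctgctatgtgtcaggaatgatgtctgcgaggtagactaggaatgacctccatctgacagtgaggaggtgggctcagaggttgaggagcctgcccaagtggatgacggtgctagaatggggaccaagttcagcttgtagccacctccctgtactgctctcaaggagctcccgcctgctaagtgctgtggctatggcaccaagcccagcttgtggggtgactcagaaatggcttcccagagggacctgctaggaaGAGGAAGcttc
AZU1 upstream region: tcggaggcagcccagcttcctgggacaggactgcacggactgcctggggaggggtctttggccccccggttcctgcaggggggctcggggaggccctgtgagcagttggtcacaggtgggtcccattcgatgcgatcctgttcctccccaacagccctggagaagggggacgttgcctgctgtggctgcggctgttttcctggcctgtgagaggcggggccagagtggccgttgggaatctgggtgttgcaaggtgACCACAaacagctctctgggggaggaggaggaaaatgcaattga
PRG2 upstream region: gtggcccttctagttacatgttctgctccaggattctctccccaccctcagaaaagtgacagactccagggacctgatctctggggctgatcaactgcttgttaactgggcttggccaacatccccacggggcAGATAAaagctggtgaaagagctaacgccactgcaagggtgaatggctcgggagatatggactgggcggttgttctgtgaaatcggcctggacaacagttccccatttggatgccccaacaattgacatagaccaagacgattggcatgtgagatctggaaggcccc
AZU1 promoter: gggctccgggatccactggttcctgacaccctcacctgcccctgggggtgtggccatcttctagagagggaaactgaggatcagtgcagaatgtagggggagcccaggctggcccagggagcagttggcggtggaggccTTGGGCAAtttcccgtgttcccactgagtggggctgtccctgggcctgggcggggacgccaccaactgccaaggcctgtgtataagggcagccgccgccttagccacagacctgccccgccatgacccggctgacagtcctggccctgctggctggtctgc
PRTN3 promoter: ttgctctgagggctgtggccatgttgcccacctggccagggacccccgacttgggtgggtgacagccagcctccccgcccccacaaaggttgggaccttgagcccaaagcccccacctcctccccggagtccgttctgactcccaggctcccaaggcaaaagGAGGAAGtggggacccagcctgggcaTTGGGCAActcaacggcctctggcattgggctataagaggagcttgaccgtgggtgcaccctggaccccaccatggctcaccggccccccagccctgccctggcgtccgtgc

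Both promoters held 1 match to TTNNGNAA, with the same letters, TTGGGCAA, in each. These letters fit 36.8% of 35116 RefSeq promoters of this length, so a match is common. The PRTN3 promoter also held GAGGAAG, which 13.6% of promoters hold. Of the region windows, that of EPX held GAGGAAG (15.0% of the windows of all 85549 regions), that of AZU1 held TGTGGT (22%) and that of PRG2 held AGATAA (23.4%). No match overlapped another. GCGTGGGNG was in none of the 5 sequences, and 2.8% of promoters and 1.84% of region windows hold it. A match describes letters and not the binding of a factor.

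BASP1 itself was at 5 to 7 in V-K562 libraries. It was between 6189 and 6849 in B-K562 and between 8124 and 12538 in G-K562 libraries. Gene totals do not tell wtBASP1 from BASP1-G2A, so they check that BASP1 was expressed and not which form. These RNA values are normalized read counts, that is, reads per gene divided by a size factor of the library and rounded. Their totals of 32074895 to 33229588 per library do not show depth, but in 4 libraries the spacing of the rounded values could be read and gave 28921016 to 32648070 reads on genes. Values below 10 are therefore of the order of 10 reads or fewer and carry a large counting error. V-K562 replicate 1 stood apart for several epithelial and neutrophil genes, with SLPI at 52 against 2 and 0, and S100A9 at 58 against 12 and 7 in replicates 2 and 3, and this touches MPO below. The erythroid genes that mark K562 cells were present in all libraries, where 13 of 13 listed genes were tested. Their summed values were 115752 to 132708 in V-K562 and 212986 to 217571 in B-K562 cells, against 63070 to 69199 in the G-K562 line. A gene was called if it changed 2-fold or more with an adjusted p of 0.05 or less. Relative to V-K562 cells 4 of the erythroid genes were called higher in B-K562 and 9 lower in G-K562 cells. Of all genes, 6.46% were called higher in B-K562 and 10.3% lower in G-K562 cells. The median log2 fold changes of the erythroid genes were 0.88 and -1.20. The part of this erythroid difference between the lines in the results below was not tested.

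Of the 10 genes, RNASE2 and CTSG were at 0 throughout, MPO and ELANE were too low for a test, and 6 could be tested in at least 1 comparison. EPX and PRG2 were highest in B-K562 cells. AZU1 and PRTN3 were lowest there and overlapped between V-K562 and G-K562 cells. LPO and LYZ were highest in G-K562 cells, where PRG2 was lowest. The plot of the genes by library shows these patterns side by side.

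**Figure D1:**
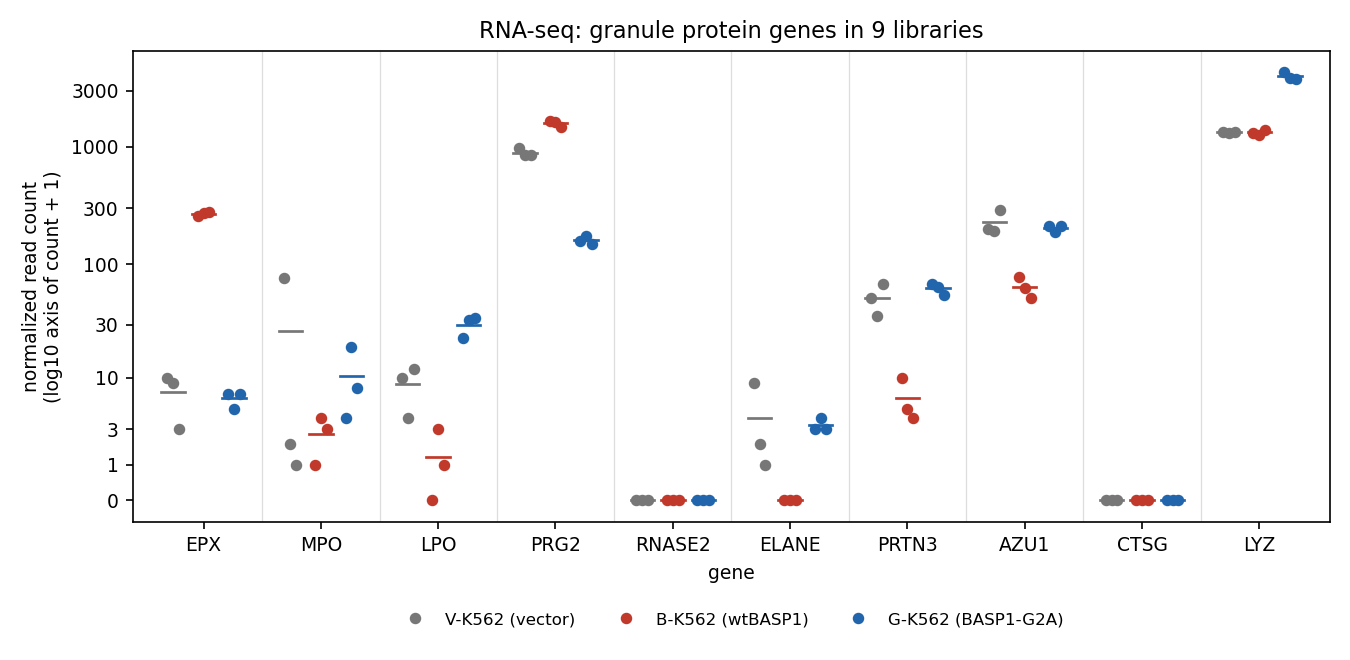
Normalized read counts of the 10 granule protein genes on a log10 axis of count + 1, with 1 point per library and a bar at the mean of the 3 libraries of a line. EPX lies between 260 and 280 in B-K562 cells and at 10 or less in the other lines, while RNASE2 and CTSG are at 0 throughout.

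EPX (Entrez 8288, chromosome 17, 58192728 to 58205174, forward strand) was at 10, 9 and 3 in the V-K562 libraries, 260, 272 and 280 in those of B-K562, and 7, 5 and 7 in those of G-K562 cells. The B-K562 libraries stood far above all others, and those of V-K562 and G-K562 overlapped. The mean was 7.33 ± 3.79 (SD, n = 3) in V-K562, 270.7 ± 10.1 (SD, n = 3) in B-K562 and 6.33 ± 1.15 (SD, n = 3) in G-K562 cells. On the scale of log2(value + 1), which understates the change of low genes, B-K562 cells were higher than V-K562 cells by 5.16 (SE 0.31). The difference of G-K562 from B-K562 cells on this scale was -5.25 (SE 0.33). The first of these values is what the genes were chosen for, so both are given without a test, and EPX was too low in V-K562 and G-K562 cells for a test between those lines.

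MPO (Entrez 4353, chromosome 17, 58269855 to 58284313, reverse strand), the peroxidase of neutrophils, lies on the same chromosome arm, downstream of EPX and LPO. It was at 76, 2 and 1 in the V-K562 libraries, 1, 4 and 3 in B-K562, and 4, 19 and 8 in G-K562. The V-K562 level rested on replicate 1, and without it both remaining libraries lay within the range of the B-K562 libraries. MPO reached 10 in only 2 of the 9 libraries and was not tested.

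LPO (Entrez 4025, chromosome 17, 58237737 to 58268536, forward strand) sits between EPX and MPO. Its values were 10, 4 and 12 in V-K562, 0, 3 and 1 in B-K562, and 23, 33 and 34 in G-K562 cells. The G-K562 libraries lay above all others and the B-K562 libraries below. LPO passed the filter on low values, 10 in 3 libraries, only through the G-K562 libraries, where it was high. For such genes the adjusted p given is the one of limma with no filter on low values, over all genes with a read. LPO rose in G-K562 cells by a log2 fold change of 1.74 over V-K562 cells (SE 0.38, adjusted p = 0.0077) and was higher than in B-K562 cells by 3.92 (SE 0.52, adjusted p = 3.3e-05). It was too low for a test between B-K562 and V-K562 cells. The 3 peroxidase genes of this locus thus had separate patterns, with EPX highest in B-K562, LPO highest in G-K562 and MPO at 10 or more only in V-K562 replicate 1 and G-K562 replicate 2.

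PRG2 (Entrez 5553, chromosome 11, 57386787 to 57390657, reverse strand) was among the more abundant of the 10 genes in all lines. It was at 969, 844 and 850 in V-K562, 1646, 1622 and 1465 in B-K562, and 158, 174 and 148 in G-K562 cells. The libraries of no 2 lines overlapped. B-K562 cells were higher than V-K562 cells by 0.83 on the log2 scale (SE 0.07), less than 2-fold. In G-K562 cells PRG2 fell by 2.49 relative to V-K562 cells (SE 0.10, adjusted p = 2.5e-09), and the log2 fold change of G-K562 against B-K562 cells was -3.32 (SE 0.08, adjusted p = 2.1e-13). RNASE2 (Entrez 6036, chromosome 14), the eosinophil granule ribonuclease, was at 0 in all 9 libraries. So were its close copy RNASE3, whose reads could be shared with it, and CTSG (Entrez 1511, chromosome 14). Of the remaining eosinophil granule genes, PRG3 was at 7 or less in every library. CLC, which forms the crystals of the eosinophil and was singled out after its values were seen, was at 4, 0 and 1 in V-K562, 25, 8 and 17 in B-K562, and 2, 4 and 1 in G-K562 cells.

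The azurophil granule genes AZU1, PRTN3 and ELANE lie next to each other on chromosome 19, on the forward strand. AZU1 (Entrez 566, 827831 to 832017) was at 201, 192 and 291 in V-K562, 77, 62 and 51 in B-K562, and 214, 187 and 213 in G-K562 cells. PRTN3 (Entrez 5657, 840965 to 848175) was at 51, 36 and 67 in V-K562, 10, 5 and 4 in B-K562, and 68, 64 and 54 in G-K562 cells. ELANE (Entrez 1991, 850997 to 856250), the neutrophil elastase, was at 9, 2 and 1 in V-K562, at 0 in all 3 B-K562 libraries, and at 3, 4 and 3 in G-K562 cells. For each of the 3 genes all B-K562 libraries lay below all V-K562 and G-K562 libraries, and libraries of B-K562 and V-K562 cells do not overlap for 77.8% of all genes tested between them.

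AZU1 was lower in B-K562 than in V-K562 cells by a log2 difference of -1.83 (SE 0.18) and PRTN3 by -2.88 (SE 0.34), given without a test because they come from the comparison that chose the genes. In G-K562 cells AZU1 was higher than in B-K562 cells by 1.67 (SE 0.17, adjusted p = 5.1e-07). PRTN3 was higher by 3.16 (SE 0.30, adjusted p = 2.3e-07). Against V-K562 cells neither gene of the G-K562 line passed the test, the log2 fold changes being -0.16 (SE 0.15, adjusted p = 0.37) for AZU1 and 0.27 (SE 0.22, adjusted p = 0.30) for PRTN3. ELANE was too low for a test.

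LYZ (Entrez 4069, chromosome 12, 69348354 to 69354233, forward strand) was at 1333, 1303 and 1342 in V-K562, 1320, 1265 and 1402 in B-K562, and 4301, 3822 and 3772 in G-K562 cells. The V-K562 and B-K562 libraries overlapped, with a log2 difference of 0.002 (SE 0.055), and the G-K562 libraries lay above both. LYZ rose in G-K562 cells by a log2 fold change of 1.55 over V-K562 cells (SE 0.06, adjusted p = 3.9e-09). Against B-K562 cells the log2 fold change was also 1.55 (SE 0.06, adjusted p = 1.5e-11).

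Of the 10 genes, 5 could be tested in G-K562 against V-K562 cells, where 2 rose (LPO and LYZ) and 1 fell (PRG2), LPO being tested only through the line where it was high. Among all 15271 genes tested there, 8.81% rose and 10.3% fell. That comparison shares the V-K562 libraries with the one that chose the genes. In B-K562 against V-K562 cells, 5 genes passed the filter on low values (EPX and PRTN3 only through the line where they were higher), of which EPX was at least 2-fold higher and AZU1 and PRTN3 at least 2-fold lower, where 6.46% and 14.1% of all 14958 genes are called higher and lower. Nothing is read from that count, since the comparison chose the genes. Between G-K562 and B-K562 cells 6 genes passed the filter, of which AZU1, LPO, PRTN3 and LYZ were higher in G-K562 cells and EPX and PRG2 lower, with 17.4% and 12.5% of all 15521 genes called in these directions. Nothing is read from this count either, since it shares the B-K562 libraries with the comparison that chose the genes and includes EPX. The median log2 fold changes of the tested granule genes were 0.002, 0.27 and 1.61 in the 3 comparisons in the order B-K562 against V-K562, G-K562 against V-K562 and G-K562 against B-K562, and those of all genes 0.007, 0.003 and -0.023. Libraries of G-K562 and V-K562 cells do not overlap for 70.2% of all genes tested, so the absence of overlap sets no gene apart here.

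**Figure D2:**
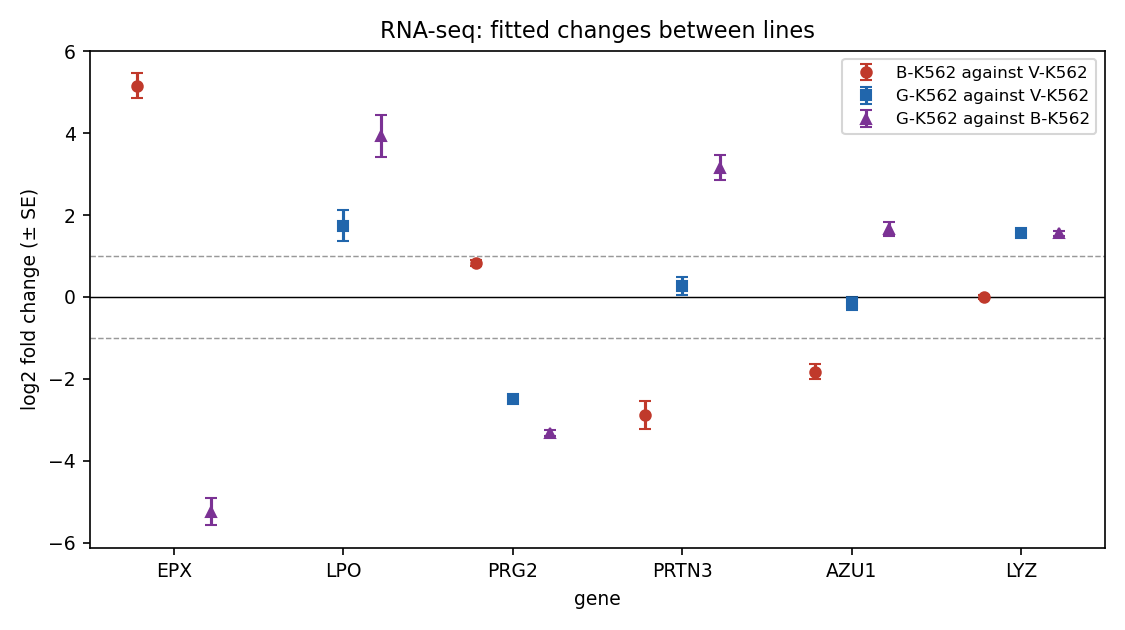
Fitted log2 fold changes with their standard errors for the 6 granule protein genes that passed the filter on low values, with circles for B-K562 against V-K562, squares for G-K562 against V-K562, triangles for G-K562 against B-K562 and dashed lines at a 2-fold change. EPX is at 5.16 in B-K562 against V-K562, and AZU1 and PRTN3 are below 0 there and above 0 in G-K562 against B-K562.

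Levels of different genes were compared per kb of merged exons. In V-K562 cells the order of the mean levels was LYZ at 874.7 per kb, PRG2 at 574.9, AZU1 (211 to 319 in its 3 libraries) and PRTN3 at 47.98, and no neighbours in this order overlapped. Below these, MPO, EPX, ELANE and LPO, at 7.67 to 1.74 per kb, overlapped from each to the next. In B-K562 cells PRG2, at 1022 per kb, came above LYZ at 876.6, and EPX took the third place at 99.6 per kb, above AZU1 at 69.4 and PRTN3 at 5.92, again without overlap of neighbours. In G-K562 cells LYZ led at 2615 per kb, ahead of AZU1 at 224.4, PRG2 at 103.6 and PRTN3 at 57.9. EPX was there at 2.33 per kb and overlapped with MPO and ELANE.

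The ATAC-seq libraries held 47111 to 55570 peaks each, and a region was given its highest summit pileup in a library, the number of tags over the summit. The authors had sampled all libraries to equal tag numbers, and before the test values were scaled by a trimmed mean, with values under 17 or absent set to 17. Scaling matters here, since the median log2 fold change of all regions in G-K562 against V-K562 cells was -0.095 with it and 0.188 without it. The values given below are the unscaled pileups as deposited. These libraries are separate from the RNA-seq libraries, so the regions were tested in all comparisons. Positions of named regions are in GRCh38.

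The region upstream of EPX (chromosome 17, 58189759 to 58190214), 2514 bp before the gene and outside any annotated gene at its summit, was less open in B-K562 cells. Its pileup was 69, 63 and 60 tags in V-K562, 43, 40 and 43 in B-K562, and 110, 82 and 101 in G-K562 cells. The B-K562 libraries, which had the most EPX RNA, had the lowest pileups. The V-K562 and G-K562 libraries did not overlap in these unscaled values, but after scaling they did, at 68.1 to 79.7 and 73.4 to 95.6, against 40.8 to 44 in B-K562 cells. It fell in B-K562 relative to V-K562 cells, with a log2 fold change of -0.74 (SE 0.16, adjusted p = 0.012), and G-K562 cells exceeded B-K562 cells by 0.97 (SE 0.13, adjusted p = 0.0005), both under 2-fold. Between G-K562 and V-K562 cells the log2 fold change was 0.25 (SE 0.14, adjusted p = 0.19), and 0.59 with the unscaled values (adjusted p = 0.012). A second region, in an intron of EPX (58200051 to 58200388), had weak peaks of 24, 33 and 23 tags in V-K562, 27 and 29 in 2 of 3 B-K562 libraries, and 36, 24 and 26 in G-K562 cells. It passed the test in none of the 3 comparisons, with adjusted p-values of 0.42, 0.40 and 0.97. No region lay at the EPX start itself.

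Upstream of LPO, 4484 bp before its start in the tables' annotation (58232806 to 58233253), pileups were 93, 54 and 60 in V-K562, 51, 44 and 36 in B-K562, and 81, 93 and 84 in G-K562 cells. B-K562 libraries lay below those of both other lines, while V-K562 replicate 1 lay with the G-K562 libraries. The region fell in B-K562 relative to V-K562 cells by 0.77 on the log2 scale (SE 0.24, adjusted p = 0.05) and was higher in G-K562 than B-K562 cells by 0.76 (SE 0.22, adjusted p = 0.027). An intronic LPO region (58249597 to 58250065) was at 30 and 28 in 2 of 3 V-K562 libraries, 42, 35 and 57 in B-K562 and 42, 30 and 35 in G-K562 cells, and passed in no comparison. MPO held a single peak in each of 2 regions, of 21 tags in V-K562 replicate 3 and 26 tags in G-K562 replicate 3, too few libraries for a test.

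On chromosome 19, the region 3793 bp upstream of AZU1 (823597 to 824038) had the largest fitted difference between B-K562 and V-K562 cells of the 11 regions tested there. It was at 50, 51 and 55 tags in V-K562, had no peak in any B-K562 library, and was at 66, 60 and 50 in G-K562 cells. With absent peaks set to 17, its log2 fold change in B-K562 against V-K562 cells was -1.63 (SE 0.18, adjusted p = 0.0019), and G-K562 cells exceeded B-K562 cells by 1.52 (SE 0.17, adjusted p = 0.00015). A missing peak does not show a pileup of 0, so these sizes depend on the value set in its place. All B-K562 values were this set value, so B-K562 cultures add no spread to the SE and adjusted p. G-K562 and V-K562 cells overlapped (adjusted p = 0.40). The region also falls inside the span of PLPPR3 in the tables' annotation (812488 to 824243, reverse strand), near the 5′ end of that gene. PLPPR3 RNA was at 1082, 1160 and 1042 in B-K562 against 1435, 1335 and 1458 in V-K562 cells, with a log2 fold change of -0.36 (SE 0.06, adjusted p = 8e-05). In G-K562 cells it was at 3333, 2767 and 3058, a log2 fold change of 1.09 over V-K562 cells (SE 0.07, adjusted p = 2e-07).

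The 3 further regions of this cluster went the same way. A region in an exon of PRTN3 (843336 to 843807) had 28, 36 and 26 tags in V-K562, 25 in 1 of 3 B-K562 libraries, and 33, 50 and 48 in G-K562 cells. A region in an intron of PRTN3 (844510 to 844796) had 32, 26 and 30 tags in V-K562, no peak in B-K562, and 32 and 35 in 2 of 3 G-K562 libraries. A region over the ELANE start (850412 to 851006) had 34, 24 and 46 tags in V-K562, 25 in 1 of 3 B-K562 libraries, and 36, 43 and 43 in G-K562 cells. Relative to V-K562 cells, their log2 fold changes in B-K562 cells were -0.69 (adjusted p = 0.04), -0.82 (adjusted p = 0.0073) and -0.86 (adjusted p = 0.05). Against B-K562 cells, those of G-K562 cells were 0.91 (adjusted p = 0.019), 0.50 (adjusted p = 0.12, not passed) and 0.82 (adjusted p = 0.045). All 3 are weak peaks near the level that was set for absent ones. In B-K562 against V-K562 cells, these 3 and the AZU1 upstream region were tested only through the V-K562 libraries, where they were higher. The fifth region, within CFD and 4152 bp downstream of ELANE (860402 to 860999), differed from this, with 91, 109 and 95 tags in V-K562, 78, 95 and 126 in B-K562 and 150, 181 and 196 in G-K562 cells. It rose in G-K562 cells by 0.48 over V-K562 (adjusted p = 0.02) and by 0.62 over B-K562 cells (SE 0.18, adjusted p = 0.027).

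At the LYZ start (chromosome 12, 69348176 to 69348589) pileups were 29, 44 and 38 in V-K562, 42, 31 and 29 in B-K562, and 52, 41 and 52 in G-K562 cells. After scaling the log2 fold change of G-K562 against V-K562 cells was 0.05 (SE 0.20, adjusted p = 0.88), beside the higher LYZ RNA of G-K562 cells. The second LYZ region, downstream of the gene, had a peak in replicate 1 of each line only, at 45, 43 and 48 tags. A region 4758 bp downstream of RNASE2 (chromosome 14, 20961193 to 20961567), a gene without a read, had 53, 53 and 35 tags in V-K562, 60, 43 and 50 in B-K562 and 66, 58 and 82 in G-K562 cells and passed in no comparison. CTSG had no region within 5 kb. PRG2 had weak peaks of 25 to 27 tags in V-K562 libraries only, in 2 regions that could not be tested. Just outside the 5 kb limit lay the PRG2 region whose sequence is given above, 5196 bp upstream and inside an overlapping longer transcript of GENCODE, with 42, 36 and 41 tags in V-K562, 79, 61 and 82 in B-K562 and no peak in any G-K562 library. Just inside it were the RNASE2 region and the LPO upstream region, and outside followed a region 5327 bp upstream of AZU1, with 1 peak of 54 tags in G-K562 replicate 2, and a region 5332 bp downstream of LYZ, at the start of YEATS4, where V-K562 libraries had 55 to 76 tags, B-K562 libraries 87 to 123 and G-K562 libraries 129 to 179.

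**Figure D3:**
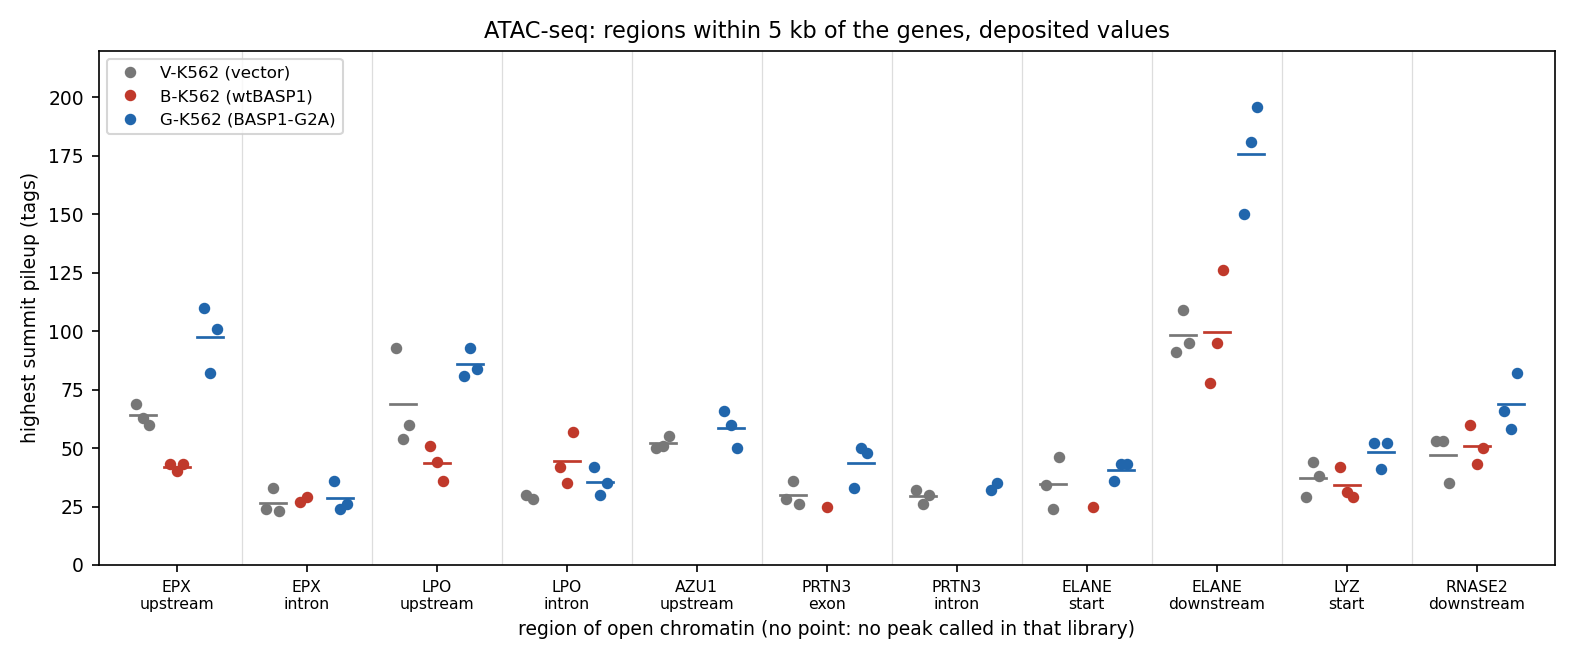
Highest summit pileup in tags, unscaled, in the 11 regions within 5 kb of the genes that were tested in B-K562 against V-K562 cells, with 1 point per library that had a peak and a bar at the mean where all 3 libraries of a line had one. The AZU1 upstream region has no point for B-K562, and the EPX upstream region is lowest in B-K562 cells.

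Of the 16 regions, 11 could be tested in B-K562 against V-K562 cells, of which 1 fell at least 2-fold (AZU1 upstream) and none rose, where 6.15% of 52204 regions fell and 1.53% rose. By the adjusted p alone 6 of the 11 fell and 0 rose, where 16.6% of all regions fell and 8.58% rose. The 6 comprise 1 region upstream of EPX, 1 upstream of LPO and 4 of the AZU1 cluster, so they are not 6 separate places. Those 4 were tested only through the V-K562 libraries, where they were higher. Fewer than 3 B-K562 libraries had a peak there, and absent peaks were set to 17. The count of 6 is therefore only a description. Of the 6, the AZU1 upstream and the intronic PRTN3 region kept an adjusted p of 0.05 or less under the 7 alternatives that could be run for them. Neither could be tested without any 1 V-K562 library or when every library needed a peak, so nothing is read from this. The other 4 lost it under at least 1, with an adjusted p of up to 0.053 for EPX upstream, 0.18 for LPO upstream and 0.14 for both the exonic PRTN3 region and the ELANE start. In G-K562 against V-K562 cells none of 11 was called by limma, where 16% of 54213 regions are, and 1 passed the adjusted p alone, higher in G-K562 cells, where 15.9% of all regions do (1 of the 11 had an unadjusted p under 0.05). In G-K562 against B-K562 cells 1 of 12 was higher at least 2-fold and none lower, where 4.28% and 8.6% of 60181 regions are. By the adjusted p alone 6 passed, all higher, where 12.3% of regions do. They lie upstream of EPX, upstream of LPO and in the AZU1 cluster, so they are not 6 separate places either. At AZU1 upstream, the exonic PRTN3 region and the ELANE start, fewer than 3 B-K562 libraries had a peak. This count too is only a description. The median log2 fold changes of the tested regions were -0.69, 0.05 and 0.56 in the 3 comparisons, and those of all regions -0.061, -0.095 and 0.0. In the AZU1 cluster RNA and open chromatin were both lowest in B-K562 cells, whereas at EPX the upstream region was lowest where the RNA was highest. Whether a region acts on the gene beside it was not tested.

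The neighbours of EPX did not share its pattern. Of the 10 other genes within 100 kb of EPX, LPO or MPO, 6 were tested and 0 were called in B-K562 against V-K562 cells, although 5 passed the adjusted p of limma alone with changes under 2-fold, as 75.8% of all genes did by that p. MKS1, whose 3′ end lies 262 bp from that of EPX on the other strand, was at 1101, 1107 and 1131 in V-K562 and 1049, 1072 and 1046 in B-K562 cells (log2 fold change -0.08, SE 0.05, adjusted p = 0.20). The precursor gene MIR142 was the 1 of these neighbours that was called in G-K562 against V-K562 cells, at a log2 fold change of 1.13 (SE 0.22, adjusted p = 0.00072). Around the AZU1 cluster, 3 of 9 tested neighbours were called in B-K562 cells, where 6.46% of all genes are called higher and 14.1% lower. PALM fell, with a log2 fold change of -1.26 (SE 0.09, adjusted p = 1.9e-08). MISP, at 62, 11 and 27 in V-K562 and 3, 8 and 8 in B-K562 cells, fell by a log2 fold change of -2.01 (SE 0.52), was highest in V-K562 replicate 1, and passed the filter on low values only through the V-K562 libraries, so that without any 1 of them it was not tested. KISS1R rose by 2.16 (SE 0.14, adjusted p = 8.4e-09).

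Across the 9 RNA-seq libraries, genes whose log2 values were among the most like EPX were MCCC2 and PRMT7 (Pearson r = 0.997 each) and DHX36 and VWA9 (r = 0.996 each), of 15521 genes compared. Their levels were up to about 2-fold higher in B-K562 than in the other lines, as for MCCC2 at 4027, 3799 and 3924 against 1902 to 2299 in V-K562. With 3 lines the likeness mostly says that a gene differs in B-K562 cells from both other lines, and 1101 genes had r of at least 0.95. Among the granule genes r with EPX was 0.692 for PRG2, -0.50 for LYZ, -0.851 for LPO, -0.975 for PRTN3 and -0.978 for AZU1.

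Genes of the cells that normally make these proteins were examined as lists of symbols, with EPX and the other granule genes above left out. The lists were drawn up with earlier results of these data known, so none was set in advance of the data. Of 9 eosinophil genes, 5 were tested in B-K562 against V-K562 cells, 2 rose and 1 fell, where 6.46% of all genes rose and 14.1% fell. IL5RA, the receptor subunit for the eosinophil growth factor IL5, rose from 5, 9 and 10 to 27, 34 and 34 (log2 fold change 1.90, SE 0.30, adjusted p = 0.00063). CCR3, the eotaxin receptor, rose from 0, 3 and 0 to 13, 13 and 12 (3.10, SE 0.59, adjusted p = 0.0012). Both passed the filter on low values only through the B-K562 libraries, and without any 1 of these libraries CCR3 was not tested and 1 gene rose in place of 2. Both were at 4 or less in every G-K562 library. ADGRE1 fell in B-K562 cells to 34, 57 and 57 from 90, 113 and 173 (-1.31, SE 0.24, adjusted p = 0.00022), and SIGLEC8, an inhibitory receptor of eosinophils, rose in G-K562 cells to 154, 156 and 191 from 30, 32 and 40 (2.27, SE 0.17, adjusted p = 3.3e-07). The list thus had no common direction, with a median log2 fold change of -0.19 in B-K562 cells, values that summed to between 302 and 439 in V-K562 libraries, between 242 and 307 in B-K562 libraries and between 608 and 792 in those of G-K562 cells, and RNASE3 at 0 throughout.

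Of 11 basophil and mast cell genes, 5 were tested. In B-K562 cells 2 rose and none fell, where 6.46% of all genes rose and 14.1% fell. In G-K562 cells 1 rose and 3 fell, where 8.81% of all genes rose and 10.3% fell. Of these 3, FCER1A and MS4A2 were tested only through the V-K562 libraries, and without any 1 of those libraries 1 gene fell. HDC, which makes histamine, was at 76, 74 and 60 in V-K562, 361, 362 and 365 in B-K562 and 1001, 849 and 1254 in G-K562 cells, a rise by 2.36 (SE 0.11, adjusted p = 5.6e-10) and 3.84 (SE 0.15, adjusted p = 2.1e-09) over V-K562 cells. FCER1A, the IgE-binding chain of the IgE receptor, rose in B-K562 cells to 38, 59 and 73 from 20, 13 and 16 (1.71, SE 0.26, adjusted p = 4.7e-05) and was at 0 in all G-K562 libraries. MS4A2, another chain of that receptor, was at 61, 42 and 64 in V-K562, 78, 88 and 97 in B-K562 and 8, 8 and 8 in G-K562 cells, and ENPP3 fell in G-K562 cells to 589, 465 and 514 from 1253, 1487 and 1431 (-1.41, SE 0.10, adjusted p = 2e-07). CPA3 and CMA1, proteases of the mast cell granule, were at 0 in all libraries.

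The cytokine receptor genes of the myeloid lineages showed the same order as PRG2 for some members. CSF2RB, the chain shared by the receptors for IL3, IL5 and GM-CSF, was at 243, 215 and 218 in V-K562, 529, 563 and 565 in B-K562 and 28, 19 and 20 in G-K562 cells. It rose in B-K562 cells by 1.29 (SE 0.08, adjusted p = 6e-09) and fell in G-K562 cells, at a log2 fold change of -3.32 (SE 0.17, adjusted p = 2.5e-08). IL1RL1, the IL33 receptor, rose in B-K562 cells to 288, 289 and 285 from 105, 104 and 126 (1.36, SE 0.11, adjusted p = 5.1e-08), and CSF3R, the G-CSF receptor of neutrophils, fell to 42, 39 and 37 from 164, 178 and 316 (-2.39, SE 0.21, adjusted p = 1.5e-07). In all, 3 of 5 tested receptor genes rose and 1 fell in B-K562 cells, and 0 of 4 rose and 2 fell in G-K562 cells (1 without V-K562 replicate 3), IL5RA being counted here too. The shares of all genes called higher and lower were 6.46% and 14.1% in B-K562 and 8.81% and 10.3% in G-K562 cells. CSF2RA and IL3RA were at 0 in every library. So were 24 of 26 genes annotated on both X and Y, so these zeros say nothing of expression.

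**Figure D4:**
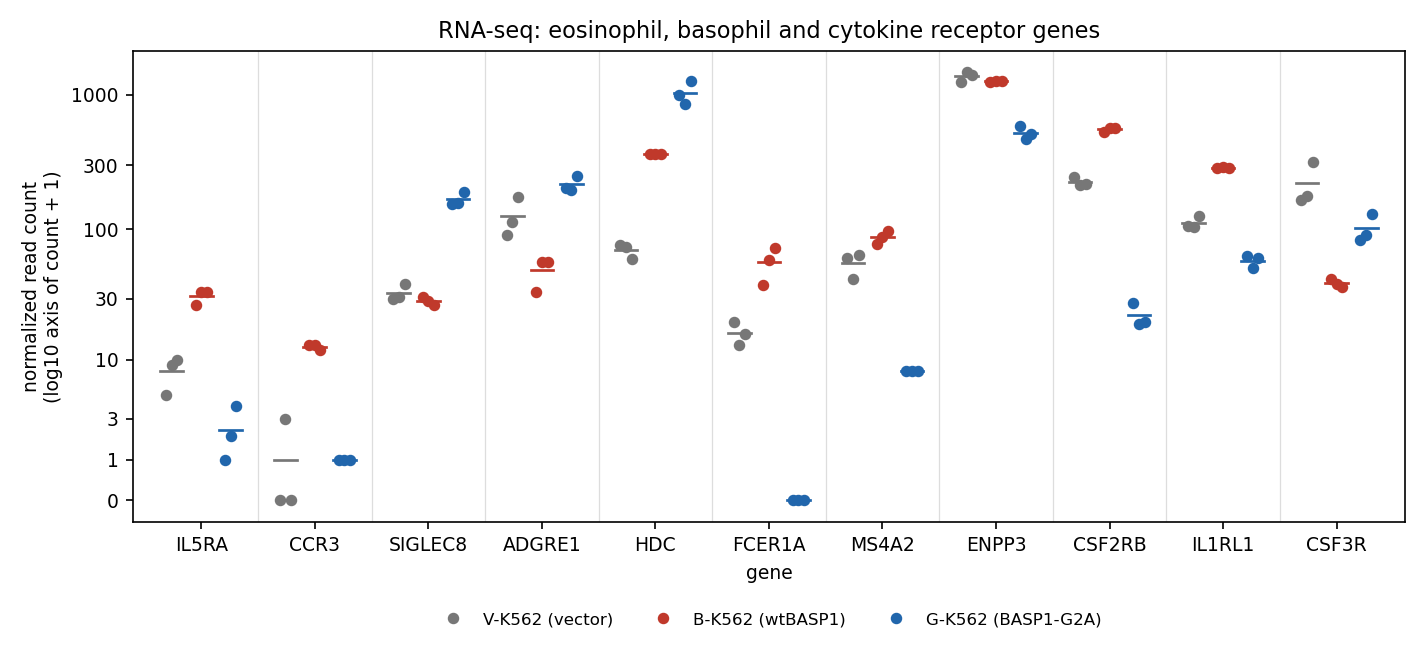
Normalized read counts of eosinophil, basophil and cytokine receptor genes on a log10 axis of count + 1, with 1 point per library and a bar at the mean of the 3 libraries of a line. IL5RA, CCR3, FCER1A, CSF2RB and IL1RL1 are highest in B-K562 cells, and HDC and SIGLEC8 in G-K562 cells.

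Of 20 granulocyte transcription factor genes, 19 were tested. In B-K562 cells 2 rose and 4 fell, and in G-K562 cells 2 rose and 2 fell. Of all genes tested, 6.46% rose and 14.1% fell in B-K562 cells, and 8.81% and 10.3% in G-K562 cells. The counts in G-K562 cells thus lie near the shares of all genes. Of the 2 that fell there, CEBPE was tested only through the V-K562 libraries, where it was higher. It was named after its values were seen. GFI1, a repressor needed for neutrophil maturation, was at 258, 277 and 318 in V-K562, 81, 68 and 72 in B-K562 and 330, 289 and 389 in G-K562 cells, a log2 fold change of -1.93 in B-K562 cells (SE 0.12, adjusted p = 5.5e-09). The other 3 that fell in B-K562 cells were CEBPA, CEBPB and CEBPD, named after their values were seen, with log2 fold changes of -1.27, -1.15 and -1.32. ZFPM1, the cofactor of GATA1, rose in B-K562 cells to 2647, 2635 and 2588 from 996, 1088 and 1050 (1.33, SE 0.05, adjusted p = 8.8e-11), and IKZF1, named after its values were seen, by 1.20 (SE 0.05, adjusted p = 2.2e-10). GFI1B fell in G-K562 cells to 1106, 927 and 903 from 3798, 3901 and 3849 (-1.98, SE 0.08).

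The genes for storing and sorting granule proteins had no call. Of 12 such genes all were tested and none was called in either line at 2-fold by limma, although 9 in B-K562 and 11 in G-K562 cells passed the adjusted p alone, as 75.8% and 66.9% of all genes did. Their median log2 fold changes were 0.03 and 0.23. Of 12 protease inhibitor genes, not all of which act on the azurophil proteases, 7 were tested. In B-K562 cells 4 fell, in G-K562 cells 1 fell, and 0 rose. Of all genes, 14.1% fell in B-K562 and 10.3% in G-K562 cells. SERPINB1, an inhibitor of ELANE, PRTN3 and CTSG, was at 4116, 4425 and 4480 in V-K562, 2151, 2089 and 2133 in B-K562 and 4034, 3980 and 4191 in G-K562 cells, a log2 fold change of -1.03 in B-K562 cells (SE 0.05, adjusted p = 4.6e-10), just past the 2-fold limit. SERPINB9 fell in B-K562 cells by 1.55 (SE 0.06), SERPINB8 by 2.55 (SE 0.24) and A2M, at 25 or less, by 1.71 (SE 0.36). SERPINB8 and A2M passed the filter on low values only through V-K562 libraries. SERPINB1 and SERPINB9 were, like AZU1 and PRTN3, lowest in B-K562 cells, although SERPINB9 was also lower in G-K562 than V-K562 cells, by a log2 fold change of -0.35 (SE 0.07, adjusted p = 0.001), and SERPINB8 was at 14 or less in G-K562 cells.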

How the data were processed

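RNA-seq (total RNA, stranded mRNA kit) and ATAC-seq (nuclei) each had 3 replicates for each of the 3 lines. The authors mapped RNA-seq reads to GRCh38 with STAR and ATAC-seq reads with BWA-MEM, removed duplicates, and counted RNA-seq reads on RefSeq genes with Subread, and whether strand was used in counting is not given in the sources used here. The deposited RNA-seq values are a score, counts that the authors divided by DESeq2 size factors and rounded, in 1 table per comparison with V-K562. The deposited ATAC-seq signal is the pileup of tags at the summit of peaks that the authors called per library with MACS2 after sampling to equal tags. Columns of fold changes and p-values by the authors were not used.

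RNA-seq values were tested as log2(value + 1) in limma 3.58.1 (R 4.3.3), with a variance trend and Benjamini-Hochberg adjustment over all genes with at least 10 in at least 3 libraries, or over all genes with a read for genes that passed this filter only through the line where they were high. The fit of G-K562 against B-K562 joined the 9 libraries of both tables, with B-K562 values multiplied by 1.017, the mean ratio of the V-K562 values in the 2 tables. ATAC-seq intervals were merged, scaled (30% of log ratios and 5% of mean values trimmed), set to at least 17 and tested likewise where 3 libraries had a peak. Calls needed an adjusted p of at most 0.05 and a 2-fold change. The scripts were tested on simulated data. Sequences were read from RefSeq promoters (GRCh38.p14) and hg38, and gene features of regions from GENCODE. Other steps used Python 3.11.15. The genes and all gene lists were chosen with earlier results of these data known. Genes named from a list had the largest changes in it unless stated, and some results are not reported here. P-values measure the spread between cultures of 1 pool per line. DEFA1, DEFA1B and DEFA3, HBA1 and HBA2, HBG1 and HBG2, TPSAB1 and TPSB2, and RNASE2 and RNASE3 are near-identical copies whose values are uncertain.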

Additional observations from a re-analysis of the deposited data

How the results depend on the processing

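The RNA-seq results of the granule genes kept their direction and call under other pseudocounts, other scalings and without any 1 library, except the values given here. The number of granule genes called in B-K562 against V-K562 cells was 3, became 5 with no filter on low values (LPO and ELANE added) and 1 when 10 was required in every library (AZU1), and without any 1 library stayed at 3. In G-K562 against V-K562 cells it was 3, and 2 when 10 was required in every library. In G-K562 against B-K562 cells it was 6, became 7 with no filter on low values, and 3 when 10 was required in every library. Fewer genes are tested under that requirement. The log2 fold change of EPX in B-K562 against V-K562 cells ranged from 4.54 with a pseudocount of 5 to 5.78 with quantile normalization. That of LYZ in the same comparison, at 0.002, lay on both sides of 0. It ranged from -0.099 with quantile normalization to 0.037 without B-K562 replicate 2. AZU1 in G-K562 against V-K562 cells ranged from -0.271 to 0.031 without 1 library each and turned above 0 without V-K562 replicate 3 (adjusted p = 0.83), and SIGLEC8 in B-K562 cells turned to 0.32 with quantile normalization. Calls at the 2-fold limit, such as ITGAM, RNASE1, LGALS3 and CSF3R, were lost under some alternatives.

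The ATAC-seq counts depended on the value set for absent peaks and on the scaling. In B-K562 against V-K562 cells the 1 region called became 3 with a floor of 10 tags, 6 by the adjusted p alone and 0 when every library needed a peak, and 0 to 1 without 1 library each. Without any 1 V-K562 library the AZU1 upstream region had a peak in 2 libraries only and was not tested, so that the count was 0 without V-K562 replicate 1 or 3. In G-K562 against V-K562 cells the count of 0 became 1 by the adjusted p alone and 1 with a window of 10 kb (the PRG2 region). In G-K562 against B-K562 cells the 1 region became 3 with a floor of 10, 4 with equal tags only, 6 by the adjusted p alone, 0 with a peak in every library, 2 with a window of 10 kb and 1 to 2 without 1 library each. In this comparison the LPO upstream, exonic PRTN3, ELANE start and ELANE downstream regions had adjusted p-values of up to 0.088, 0.068, 0.13 and 0.082 under an alternative, and the 1 region that passed in G-K562 against V-K562 cells, downstream of ELANE, of up to 0.058. The directions of the called regions held under all alternatives run. Regions that passed no test turned sign as follows, where ranges are over leaving out 1 library each. In B-K562 against V-K562 cells the RNASE2 region was at 0.13 with equal tags only, 0.015 with the mean pileup and -0.219 to 0.10 in range, and the region downstream of ELANE at -0.329 to 0.032. In G-K562 against V-K562 cells, with equal tags only, the EPX intron was at 0.10, AZU1 upstream at 0.16 and the ELANE start at 0.27. There the range was -0.317 to 0.145 at the ELANE start, -0.108 to 0.169 at the LYZ start, -0.158 to 0.247 upstream of LPO and -0.067 to 0.44 at the LPO intron, which was at -0.015 with the mean pileup. In G-K562 against B-K562 cells the region downstream of LYZ was at 0.052 with equal tags only, 0.012 with the mean pileup and -0.227 to 0.197 in range, and the EPX intron at -0.065 with the mean pileup and -0.19 to 0.195 in range. The cause of these shifts was not tested.

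With the replicate number as a block, the counts were unchanged, at 3, 3 and 6 granule genes and 1, 0 and 1 regions in the 3 comparisons. The numbers were not shown to pair the samples, since the correlation of same-numbered deviations was between -0.151 and 0.257 in RNA-seq. Values below 10 and peaks under about 20 tags limit what can be seen of MPO, ELANE, CLC and the MPO regions.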

Other observations

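Other myeloid genes moved in both directions. Of 24 further neutrophil genes, 8 were tested in B-K562 against V-K562 cells, 1 rose and 3 fell, and of 11 tested in G-K562 cells 4 rose and 4 fell. Among all genes, 6.46% rose and 14.1% fell in B-K562 cells, and 8.81% and 10.3% in G-K562 cells. The 3 that fell in B-K562 cells, and 5 of the 8 called in G-K562 cells, passed the filter on low values only through the line where they were higher, and without any 1 V-K562 library none fell in B-K562 cells by limma. The adjusted p of such genes is given with no filter on low values. ARG1, an arginine-degrading enzyme of neutrophil granules, was at 32, 40 and 37 in V-K562 cells and at 5 or less in every library of both BASP1 lines, with log2 fold changes of -3.16 (SE 0.34, adjusted p = 4.1e-05) and -3.62 (SE 0.37, adjusted p = 9e-05). CRISP3, a protein of the specific granule, fell in B-K562 cells to 3, 1 and 0 from 23, 18 and 24 (-3.49, SE 0.51, adjusted p = 0.00031). MS4A3, a membrane protein of granulocyte precursors, was at 3325, 3390 and 3628 in V-K562, 2021, 1988 and 1914 in B-K562 and 469, 501 and 384 in G-K562 cells. CST7, an inhibitor of the proteases that activate granule enzymes, rose in G-K562 cells to 86, 67 and 75 from 9, 8 and 8 (3.04, SE 0.21, adjusted p = 9.7e-06). From the same list DEFA1, DEFA1B, DEFA3, DEFA4, CEACAM8 and PGLYRP1 were at 0 in all libraries. Other genes of it, TCN1 and FUT4, named after their values were seen, were not low. TCN1 was at 440, 486 and 559 in V-K562, 286, 250 and 318 in B-K562 and 2121, 1937 and 2524 in G-K562 cells. FUT4 was at 506, 532 and 490 in V-K562, 1002, 1045 and 1137 in B-K562 and 1235, 1136 and 1175 in G-K562 cells.

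Of 10 monocyte and macrophage genes, 5 were tested in B-K562 cells, where 1 rose and 3 fell (0 and 2 without B-K562 replicate 2), and 6 in G-K562 cells, where 3 rose (1 without G-K562 replicate 1). The shares of all genes were 6.46% higher and 14.1% lower in B-K562 and 8.81% higher in G-K562 cells. CD68, a lysosomal protein, was at 3038, 3110 and 3111 in V-K562, 1103, 1102 and 1212 in B-K562 and 2783, 2770 and 2609 in G-K562 cells. LGALS3 was at 114, 137 and 136 in V-K562, 54, 49 and 51 in B-K562 and 274, 266 and 258 in G-K562 cells. FCGR1A, the high-affinity IgG receptor, was at 2 or less in V-K562, at 0 in B-K562 and at 75, 83 and 120 in G-K562 cells (log2 fold change over V-K562 5.13, SE 0.30, adjusted p = 4.8e-06). ITGAM, an integrin chain of myeloid cells, rose in both BASP1 lines, to 93, 96 and 87 in B-K562 and 297, 301 and 298 in G-K562 cells from 38, 44 and 55 in V-K562 cells, and its rise in B-K562 cells lay at the 2-fold limit (log2 fold change 1.01, SE 0.17).

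Relatives of the granule proteins were mostly low. Of the peroxidase relatives DUOX1, which makes hydrogen peroxide, rose in G-K562 cells to 26, 29 and 31 from 12, 8 and 5 (1.74, SE 0.32, adjusted p = 0.0024). Of the serine proteases PRSS57 rose in G-K562 cells to 852, 640 and 896 from 123, 94 and 127 (2.78, SE 0.15, adjusted p = 2.8e-08), GZMH rose to 11, 21 and 32 from 3 or less (2.70, SE 0.46, not tested without any 1 G-K562 library), and GZMM fell in B-K562 cells to 17, 15 and 6 from 55, 60 and 72 (-2.32, SE 0.32, adjusted p = 0.0005). Of the ribonucleases RNASE1 and RNASE4 fell in B-K562 cells, with log2 fold changes of -1.01 (SE 0.08) and -2.35 (SE 0.34). RNASE4 was tested only through the V-K562 libraries, and the 2 calls became 1 without V-K562 replicate 1 or 2 or B-K562 replicate 1 and 0 without V-K562 replicate 3. RAC2, a subunit of the NADPH oxidase that feeds the peroxidases with substrate, was at 6144, 6208 and 6937 in V-K562, 3018, 3124 and 3113 in B-K562 and 10021, 9099 and 9843 in G-K562 cells. Of 6 NADPH oxidase genes, 5 were tested. In B-K562 cells 2 fell (1 without V-K562 replicate 1 or B-K562 replicate 3) and 0 rose, where 14.1% and 6.46% of all genes did. In G-K562 cells 0 were called, where 8.81% of all genes rose and 10.3% fell. By the adjusted p of limma alone 2 rose in B-K562 cells, CYBA and CYBB, and 3 fell, where 75.8% of all genes passed. The megakaryocyte gene ITGA2B fell in both BASP1 lines, with log2 fold changes of -1.31 (SE 0.06) and -2.39 (SE 0.12). It was the 1 gene called of 2 and 3 tested from that list, where 14.1% and 10.3% of all genes fell.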
